A study of Mus musculus with 4 samples.

Results

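The genes described are 10 immediate-early transcription regulators, Egr1, Egr2 and Egr3 of the EGR family, Nr4a1, Nr4a2 and Nr4a3 of the NR4A family, Klf2, Klf4 and Klf6 of the KLF family, and Ier2. They were taken by symbol from the Entrez Gene identifiers of a table of read counts on 24454 genes, and all 10 of the listed genes were found in it. The genes were listed with their differences between miR-128OE and Ctrl hearts in these same libraries already known, so they were chosen by measured values, namely the counts of the one contrast that the data hold. Their levels and differences are therefore given as a description, with no test, while other genes of the pathway are given with a test.

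The counts came from RNA-seq of total RNA of mouse hearts at postnatal day 7 (P7), with 2 libraries of each condition. Ctrl hearts were from miR-128TetRE mice, which carry miR-128 under a tetracycline-responsive element but no activator. miR-128OE hearts were from α-MHC-tTA; miR-128TetRE mice, in which the α-myosin heavy chain promoter drives the tetracycline transactivator tTA in cardiomyocytes and the transgene is repressed by doxycycline in the diet (Tet-off). Both genotypes share the miR-128TetRE allele and a C57BL/6 background, so the conditions differ by genotype in the presence of α-MHC-tTA. The tTA transgene alone is not among these libraries, and its part in any difference cannot be told apart from that of miR-128. The labels give no doxycycline schedule and no sex for these libraries, and nothing states that the libraries of one condition came from separate animals.

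Immediate-early genes are transcribed within minutes of a stimulus, from transcription factors already present in the cell such as SRF, CREB and MEF2, and without new protein synthesis. EGR proteins are zinc finger activators that bind GC-rich sites, NR4A proteins are orphan nuclear receptors that act without a known physiological ligand, and KLF proteins are zinc finger factors that bind GC and CACC boxes. In the heart these genes are known to respond to growth factors, stretch, adrenergic signals and, for Klf2 and Klf4 in endothelial cells, to flow.

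Sequences of the miRNA and of regulatory stretches of the 10 genes are shown first, for the letters that the miRNA and the known input factors recognise. Mature miR-128-3p is given from RefSeq, with the seed, bases 2 to 8, in capitals. The next line gives the stretch of the Klf4 3′UTR that pairs with it, at chr4:55527384-55527390 on the minus strand of GRCm38, with the bases complementary to the seed in capitals.
miR-128-3p: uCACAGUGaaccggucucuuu
Klf4 3′UTR: ctgttatgCACTGTGgtttcagat
Klf4 was the only one of the 10 genes with a seed match in its GENCODE 3′UTR, and the other 9 held 0. Matches counted were CACTGTG, opposite bases 2 to 8 of the miRNA, and ACTGTGA, which does not need base 8. A match of either kind was found in 27.3% of the 19812 genes with a 3′UTR, and in 23.2% of the 3118 genes whose 3′UTR was within 25% of the 982 bases of Klf4. The level of Klf4 was higher, not lower, in miR-128OE hearts, as given with the other KLF genes.

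Promoter sequence was held by RefSeq (GRCm38.p6) for 7 of the 10 genes, as windows from 250 bases before to 50 bases after a transcript start. Egr2 had 5 such windows and each other gene had 1. For Egr2 the number of matches given for a motif is the highest in any window. The entries for Egr1, Egr3 and Ier2 are missing. The stretches printed lie before a transcript start of each gene and hold no annotated exon base. Those of Egr2 and Nr4a1 lie downstream of other annotated starts of the same gene. They were chosen to show, in capitals, the core of the CREB site, TGACG or its complement, the CArG box of SRF, the MEF2 box, and the EGR site GCGGGGGCG or GCGTGGGCG. The stretches are Egr2 at chr10:67537719-67537868, Nr4a1 at chr15:101266696-101266845, Nr4a2 at chr2:57124004-57124153 on the minus strand and Nr4a3 at chr4:48045086-48045110. Those of the KLF genes are Klf2 at chr8:72318883-72319032 and Klf6 at chr13:5861332-5861481, which holds none of these motifs. The stretch of Klf4, at chr4:55532476-55532625 on the minus strand, holds none of them either and is not printed. Motifs were not tested against the differences between conditions.
Egr2: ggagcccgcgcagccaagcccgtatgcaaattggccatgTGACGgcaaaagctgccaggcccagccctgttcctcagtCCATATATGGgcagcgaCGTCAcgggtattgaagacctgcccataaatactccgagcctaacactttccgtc
Nr4a1: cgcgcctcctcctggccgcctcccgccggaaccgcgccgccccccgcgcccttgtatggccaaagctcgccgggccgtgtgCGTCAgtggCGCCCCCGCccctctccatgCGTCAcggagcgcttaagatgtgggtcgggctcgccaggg
Nr4a2: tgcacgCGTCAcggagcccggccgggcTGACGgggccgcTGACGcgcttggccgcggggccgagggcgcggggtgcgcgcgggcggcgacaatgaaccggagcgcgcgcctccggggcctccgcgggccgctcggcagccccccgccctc
Nr4a3: ccatgtCGTCAcatTGACGtctcgc
Klf2: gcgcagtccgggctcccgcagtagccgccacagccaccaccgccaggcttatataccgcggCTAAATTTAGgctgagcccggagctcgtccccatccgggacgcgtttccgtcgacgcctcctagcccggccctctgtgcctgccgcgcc
Klf6: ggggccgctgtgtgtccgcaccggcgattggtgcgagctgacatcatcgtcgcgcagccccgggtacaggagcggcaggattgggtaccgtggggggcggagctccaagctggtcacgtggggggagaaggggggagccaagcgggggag
Over the whole windows and both strands, the core TGACG occurred 4 times in each of Nr4a1, Nr4a2 and Nr4a3, 2 times in Egr2, once each in Klf2 and Klf4, and 0 times in Klf6. At least 1 core was present in 23% of the 27025 genes with a window, and 4 or more were present in 69 genes, or 0.255%. The full palindrome TGACGTCA, which contains the core, was in 0 of the 7 genes and in 2.03% of all genes.

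A CArG box was found in Egr2 alone among the 7 genes, against 1.81% of all genes. MEF2 boxes were found in Nr4a2, upstream of the stretch printed, and in Klf2, against 3.7% of all genes. An EGR site was found once each in Nr4a1, Klf2 and Klf4, against 3.93% of all genes. The NR4A monomer site AAAGGTCA was in 0 of the 7 genes and in 1.7% of all genes. The GC box GGGGCGGGG, which can overlap the EGR site, occurred 3 times in Klf4, 2 times each in Nr4a1 and Klf2 and once in Egr2, against 12.9% of all genes. These matches describe letters in a window and do not show that a factor bound there.

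**Figure D1:**
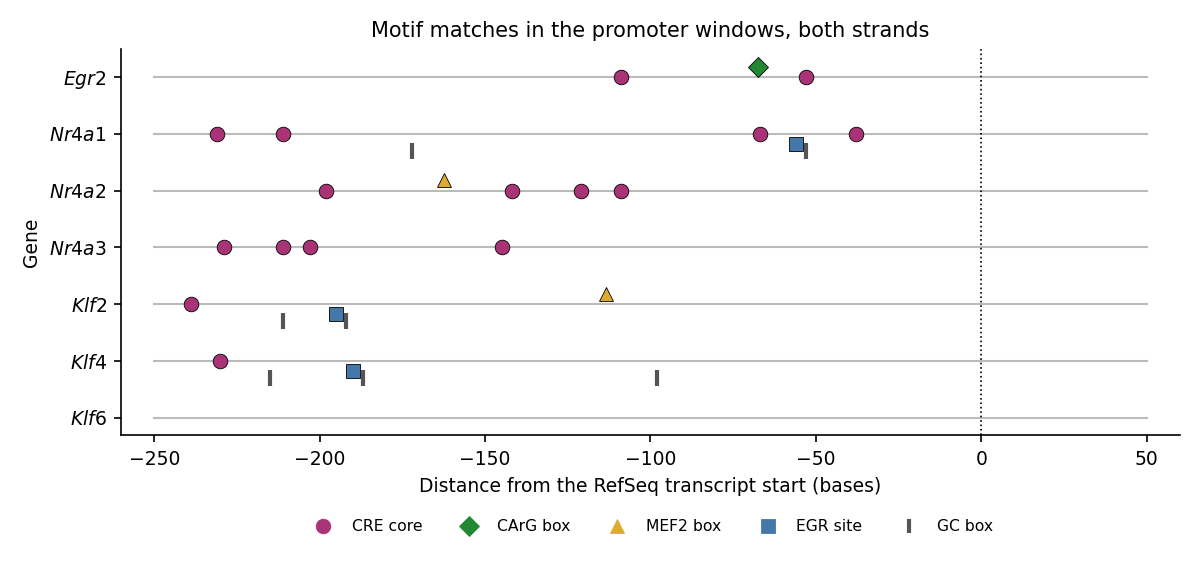
Motif matches in the RefSeq promoter windows of 7 genes, by distance in bases from the transcript start (x axis), with 1 line per gene and 1 symbol per match on either strand. Of the 5 windows of Egr2 1 is drawn, and the GC box of Egr2 lies in another. Each NR4A gene carries 4 CRE cores and Klf6 carries 0.

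Library totals ranged from 8096870 to 14359838 counts, so that the limit of 3 counts stood at 0.209 to 0.371 CPM, the count scaled to a fixed library total. The hairpin gene Mir128-2 was at 0 counts in both Ctrl libraries and 2 and 10 counts in miR-128OE replicates 1 and 2, and Mir128-1 had 0 in all 4. These few counts on hairpin genes do not measure mature miR-128. Condition coincided with sex in these libraries. Xist, the RNA that silences an X chromosome, was read 14543 and 11339 times in Ctrl and 94 and 132 times in miR-128OE libraries, while the Y-linked Ddx3y had 13 and 7 against 1442 and 1768. The Y-linked Eif2s3y had 4 and 4 against 1352 and 1645, Kdm5d had 4 and 0 against 312 and 331, and Uty had 0 and 1 against 261 and 325. Effects of sex and of miR-128 on any gene here cannot be told apart. Both Ctrl libraries stood apart in their atrial markers, in opposite directions, with a summed normalized count of 69298 in replicate 1 and 8267 in replicate 2, against 24843 and 31911 in miR-128OE replicates 1 and 2. Ctrl replicate 2 also had the lowest sum of fibroblast markers, at 76106 against 103180 to 117140 in the other libraries. Log2 fold changes without each of the Ctrl libraries are given for the genes that moved by more than their spread, and the part of these libraries in other differences was not tested.

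Of the 10 genes, 9 were higher in both miR-128OE libraries than in either Ctrl library, 0 were lower in both, and 1, Klf6, overlapped. The same was true in the higher direction of 33.7% of the 14266 genes tested and in the lower direction of 34.4%. The rule listed the genes with this contrast known, so the count is read as a description alone. By size, 7 of the 10 genes were higher by at least 1.5-fold, against 8.56% of all genes. Differences of at least 2-fold were seen for 6, against 2.39% of all genes, and of at least 4-fold for 3, Egr1, Nr4a1 and Nr4a3, against 0.421%. Egr2 and Ier2 lay near the 2-fold limit. Both fell below it when libraries were scaled by total counts, at log2 fold changes of 0.98 and 0.99. Egr2 was also below it, at 0.97, without miR-128OE replicate 1. The median log2 fold change of the 10 genes was 1.08, against −0.01 over all genes, with 1.06 and 1.10 when Ctrl replicate 1 or 2 was left out. Their summed normalized count was 5266 and 4880 in Ctrl and 11961 and 12117 in miR-128OE libraries. Normalized counts are counts scaled by TMM factors to a common library size. All 10 genes passed the filter on low counts, at a cutoff of 0.806 CPM, in both libraries of each condition. Since heart tissue was sequenced, more cells of a type and more RNA per cell cannot be told apart. The study's methods do not state which parts of the heart were taken for these libraries.

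**Figure D2:**
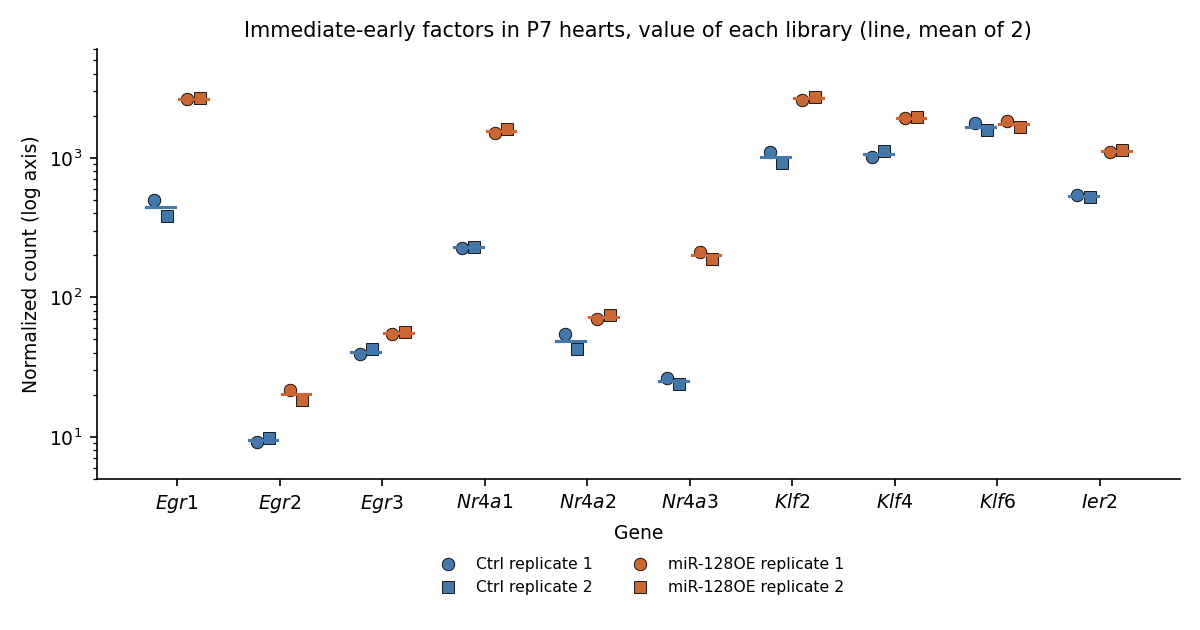
Normalized count (y axis, log scale) of each of the 10 genes (x axis) in each of the 4 P7 heart libraries, with Ctrl in blue, miR-128OE in orange and a line at the mean of 2. Apart from Klf6, every gene has both miR-128OE points above both Ctrl points.

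Among the EGR genes, Egr1 stood out in both level and difference. Egr1 (Entrez Gene 13653, chromosome 18) encodes the founding zinc finger factor of the family, a serum and stretch response gene. It had normalized counts of 501 and 383 in Ctrl replicates 1 and 2 and of 2622 and 2688 in miR-128OE replicates 1 and 2. The miR-128OE libraries lay close together, and the lower of them was 5.23 times the higher Ctrl library. The mean was 442 ± 83.5 in Ctrl and 2655 ± 46.9 in miR-128OE hearts (SD, n = 2), a log2 fold change of 2.57 (standard error, SE, 0.12), or 5.95-fold. Egr1 stood at 2.79 on this scale without Ctrl replicate 1 and 2.41 without Ctrl replicate 2.

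Egr2 (Entrez Gene 13654, chr10:67535475-67542188), best known from Schwann cell myelination, was read at low depth. It was read 10 and 7 times in Ctrl and 22 times in each miR-128OE library. After scaling these were 9.14 and 9.89 against 21.8 and 18.5 normalized counts, with no overlap between conditions. The log2 fold change was 1.08 with an SE of 0.43, the widest error among the 10 genes. Egr3 (Entrez Gene 13655, chr14:70077203-70082614), a target of calcineurin and NFAT signalling in lymphocytes, had 39.3 and 42.4 normalized counts in Ctrl and 54.5 and 56.4 in miR-128OE libraries. The conditions did not overlap, but the log2 fold change of Egr3 was 0.45 (SE 0.26), the smallest difference among the EGR genes.

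The NR4A genes Nr4a1 and Nr4a3 held the highest fold changes of the 10, and Nr4a2 differed far less. Nr4a1 (Entrez Gene 15370, chr15:101254269-101274795) encodes NUR77, an orphan receptor induced by adrenergic and calcium signals. Ctrl libraries held 227 and 230 normalized counts of Nr4a1, and miR-128OE libraries held 1512 and 1610. The mean went from 229 ± 2.53 to 1561 ± 69.3 (SD, n = 2), a log2 fold change of 2.77 (SE 0.09), or 6.83-fold.

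Nr4a3 (Entrez Gene 18124, chr4:48045153-48086447), which encodes NOR1, was among the lowest of the set in Ctrl hearts per exon length. It had 26.5 and 24.0 normalized counts in Ctrl and 213 and 189 in miR-128OE libraries. The mean of 25.3 ± 1.76 against 201 ± 16.7 (SD, n = 2) gave a log2 fold change of 2.97 (SE 0.21), or 7.85-fold, the largest of the 10. Nr4a2 (Entrez Gene 18227, chr2:57106830-57124003), which encodes NURR1, a factor of dopaminergic neurons, had 54.9 and 42.4 normalized counts in Ctrl and 70.3 and 74.9 in miR-128OE libraries. The Ctrl libraries of Nr4a2 lay apart from each other, and its lower miR-128OE library was 1.28 times its higher Ctrl library. The log2 fold change of Nr4a2 was 0.56 (SE 0.25), with 0.78 without Ctrl replicate 1 and 0.41 without Ctrl replicate 2. By log2 fold change Nr4a3, Nr4a1 and Egr1 ranked 30, 33 and 36 among the 14266 genes tested, and Nr4a2 and Egr3 ranked 1348 and 1945.

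The KLF genes, with Klf2 the most abundant of the 10 per exon length, split by size of difference. Klf2 (Entrez Gene 16598, chr8:72319033-72321656), a factor of endothelial quiescence induced by laminar flow, had 1102 and 914 normalized counts in Ctrl and 2603 and 2723 in miR-128OE libraries. The log2 fold change of Klf2 was 1.40 (SE 0.10), or 2.63-fold, with 1.54 without Ctrl replicate 1 and 1.28 without Ctrl replicate 2. Klf4 (Entrez Gene 16600, chr4:55527143-55532466), an endothelial and smooth muscle factor and a reprogramming factor, had 1006 and 1124 normalized counts against 1929 and 1949. For Klf4 the means were 1065 ± 83.2 and 1939 ± 14.2 (SD, n = 2), a log2 fold change of 0.87 (SE 0.08), or 1.82-fold, with 0.79 and 0.95 without Ctrl replicates 1 and 2, and the libraries did not overlap.

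Klf6 (Entrez Gene 23849, chr13:5861482-5870394), a broadly expressed factor of injury responses, was the exception. Its normalized counts were 1762 and 1587 in Ctrl and 1827 and 1661 in miR-128OE libraries. The conditions overlapped, since miR-128OE replicate 2 lay below Ctrl replicate 1. The log2 fold change of Klf6 was 0.06 (SE 0.09), and its sign was not stable, at −0.04 when libraries were scaled by total counts and −0.01 without Ctrl replicate 2.

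Ier2 (Entrez Gene 15936, chr8:84661331-84662852) encodes a small nuclear protein that is induced together with Fos and Egr1. It was at 538 and 523 normalized counts in Ctrl libraries and at 1110 and 1146 in miR-128OE libraries. Replicates of Ier2 lay close together in both conditions, and the log2 fold change was 1.09 (SE 0.08), or 2.13-fold. No other annotated gene overlapped any of the 10.

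**Figure D3:**
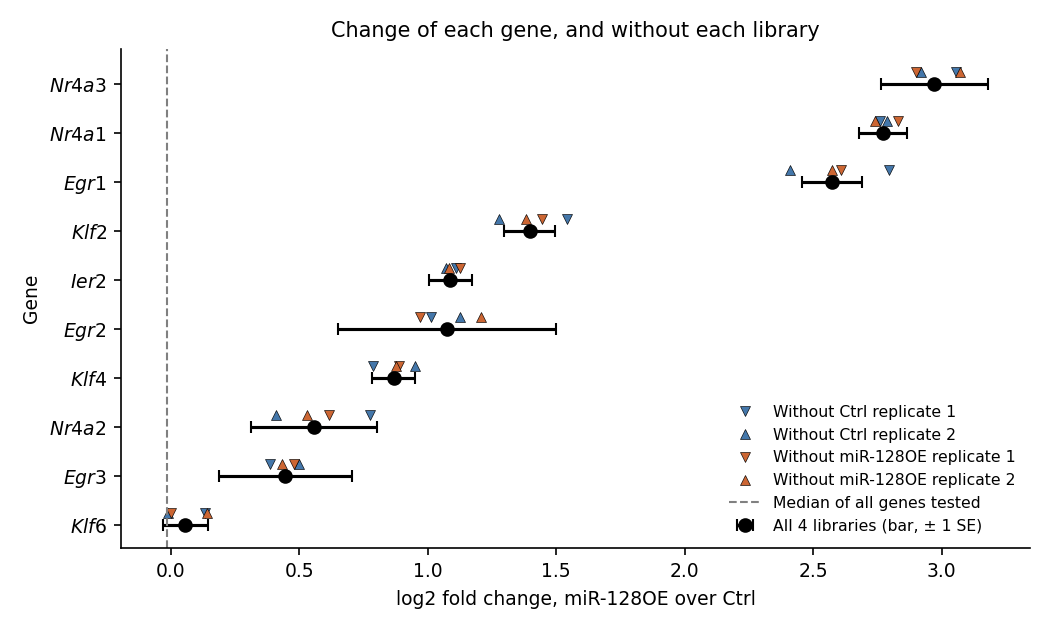
The log2 fold change of miR-128OE over Ctrl hearts (x axis) for each of the 10 genes, with 1 SE in each direction, and triangles for the value with each library left out. Nr4a3, Nr4a1 and Egr1 lie above 2 in every case, and Klf6 lies near the median of all genes, which is the dashed line.

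Levels were compared between genes as RPKM, that is CPM per kilobase of exon. In Ctrl hearts Klf2 had the highest level at 46.4 ± 6.10 RPKM (SD, n = 2), followed by Klf6 at 32.4 ± 2.39, Klf4 at 29.7 ± 2.32 and Ier2 at 29.6 ± 0.583. The libraries of Klf4 overlapped those of Klf6 and of Ier2. Klf6, at 34.1 and 30.7 RPKM, lay above Ier2, at 30.0 and 29.2, in both Ctrl libraries. Egr1 at 8.37 ± 1.58 RPKM and Nr4a1 at 5.53 ± 0.0613 formed a middle group, and their library values did not overlap. Nr4a2 at 1.02 ± 0.185 RPKM and Egr3 at 0.788 ± 0.0420 lay close, with 1 library of Nr4a2 at 0.887 beside 1 of Egr3 at 0.817, and Nr4a3 at 0.359 and Egr2 at 0.238 RPKM came last.

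In miR-128OE hearts the order by RPKM was different. Klf2 remained highest at 122 ± 3.92 RPKM, and Ier2 at 63.0 ± 1.44, Klf4 at 54.0 ± 0.396, Egr1 at 50.3 ± 0.889 and Nr4a1 at 37.8 ± 1.68 came above Klf6, at 33.7 ± 2.26 (SD, n = 2). The libraries of none of these 6 neighbours overlapped. Egr1 thus reached a level near that of Klf4, and Nr4a3 at 2.85 RPKM passed Nr4a2 at 1.52 and Egr3 at 1.07, with Egr2 last at 0.504.

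**Figure D4:**
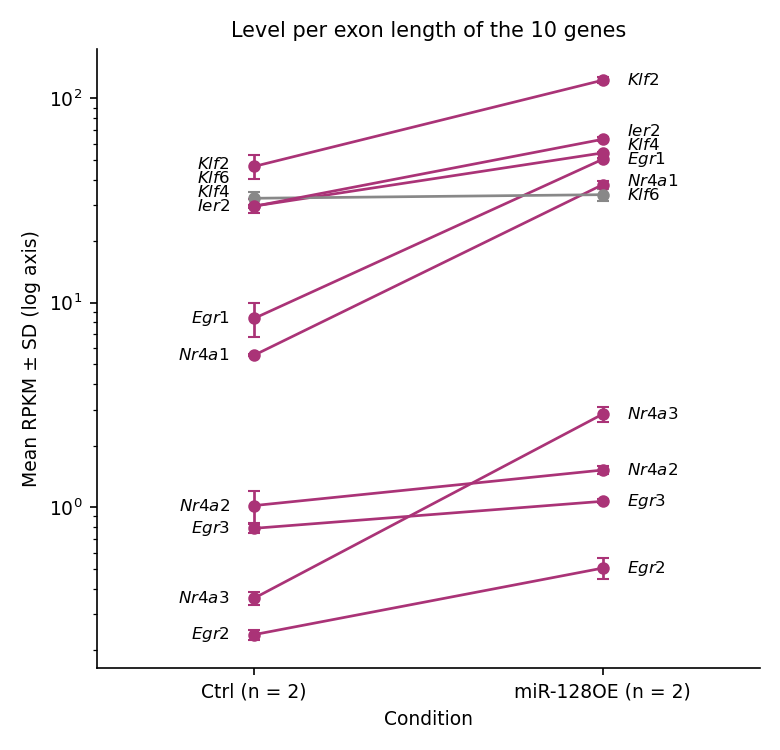
Mean RPKM (y axis, log scale, bars give the SD of 2 libraries) of the 10 genes in Ctrl and miR-128OE hearts. Purple lines mark genes whose miR-128OE libraries were both above both Ctrl libraries, and the grey line is Klf6, which stayed between 32.4 and 33.7 RPKM while Egr1, Nr4a1, Klf4 and Ier2 passed it.

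The spread between the libraries of a condition was set beside that of genes of similar mean level, taken within 0.5 on the log2 CPM scale. Egr1 differed between the Ctrl libraries by 0.39 on the log2 scale, against a median of 0.10 over 1234 similar genes, and Klf2 differed by 0.27, against 0.10. Nr4a2 differed by 0.37 between them, against 0.27 for its own class of level. Klf4 and Klf6 differed by 0.16 and 0.15, against 0.10 for similar genes. Ctrl replicate 1 held the higher value in Egr1, Klf2, Nr4a2 and Klf6, and Ctrl replicate 2 in Klf4. Between the miR-128OE libraries the difference was 0.04 for Egr1, 0.07 for Klf2 and 0.09 for Nr4a2, against medians of 0.07, 0.06 and 0.24 over similar genes. Klf6 differed by 0.14 and Nr4a1 by 0.09 between the miR-128OE libraries, each against 0.07 for similar genes. For Nr4a1 and Ier2 the Ctrl libraries differed by 0.02 and 0.04, which was less than the 0.11 and 0.12 of similar genes.

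Other early-response genes moved mostly in the same direction as the 10. Over all 14266 genes tested, the quasi-likelihood test of edgeR, with p-values adjusted by the Benjamini-Hochberg method, called 16.5% higher and 15% lower at the 0.05 level. Higher genes made up 52.3% of these calls, and 35.3% when libraries were scaled by total counts, which moved the median of all genes to −0.11. Of 50 other early-response genes, 49 passed the filter, and 30 of these were higher and 1, Irf1, named after its value was seen, was lower. Their median log2 fold change was 0.55, and the list, like the others, was written with earlier results of these data known. The genes with the smallest p-values were Dusp1, a phosphatase that inactivates MAP kinases, Ccn1, a matricellular target of YAP and SRF, and Fos, the partner of JUN in AP-1.

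Dusp1 rose from 588 and 541 normalized counts in Ctrl to 3044 and 3023 in miR-128OE libraries, or by 2.42 on the log2 scale (edgeR adjusted p = 4.85e-07). Ccn1 rose from 404 ± 66.9 to 3530 ± 133 (SD), or by 3.12 on the log2 scale (edgeR adjusted p = 5.75e-07). Fos rose from 68.0 ± 2.17 to 596 ± 3.68 (SD), or by 3.13 on the log2 scale (edgeR adjusted p = 1.36e-06). These sizes were near those of Egr1, Nr4a1 and Nr4a3, at 2.57, 2.77 and 2.97. The early-response list was not uniform, since 18 of its 49 genes were not called, among them the classical immediate-early gene Myc at 102 ± 1.83 and 102 ± 2.74 normalized counts (SD) in Ctrl and miR-128OE hearts, which was named after its value was seen. The count of higher genes ranged from 21 to 29 when each library was left out.

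Of a list of 15 genes, the other KLF genes and Egr4, 12 passed the filter, and 3 were higher and 0 were lower by the edgeR test, with a median log2 fold change of 0.22. Klf3 had a log2 fold change of 0.54 (edgeR adjusted p = 0.0097), Klf13 of 0.43 (adjusted p = 0.0159) and Klf15, a repressor of cardiac hypertrophic genes, of 0.69 (adjusted p = 0.0307). These values lie between those of Klf6, at 0.06, and Klf4, at 0.87. Egr4, the remaining EGR gene, had 1 count in miR-128OE replicate 1 and 0 in the other libraries. With either miR-128OE library left out, 0 of the other KLF genes were called higher.

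**Figure D5:**
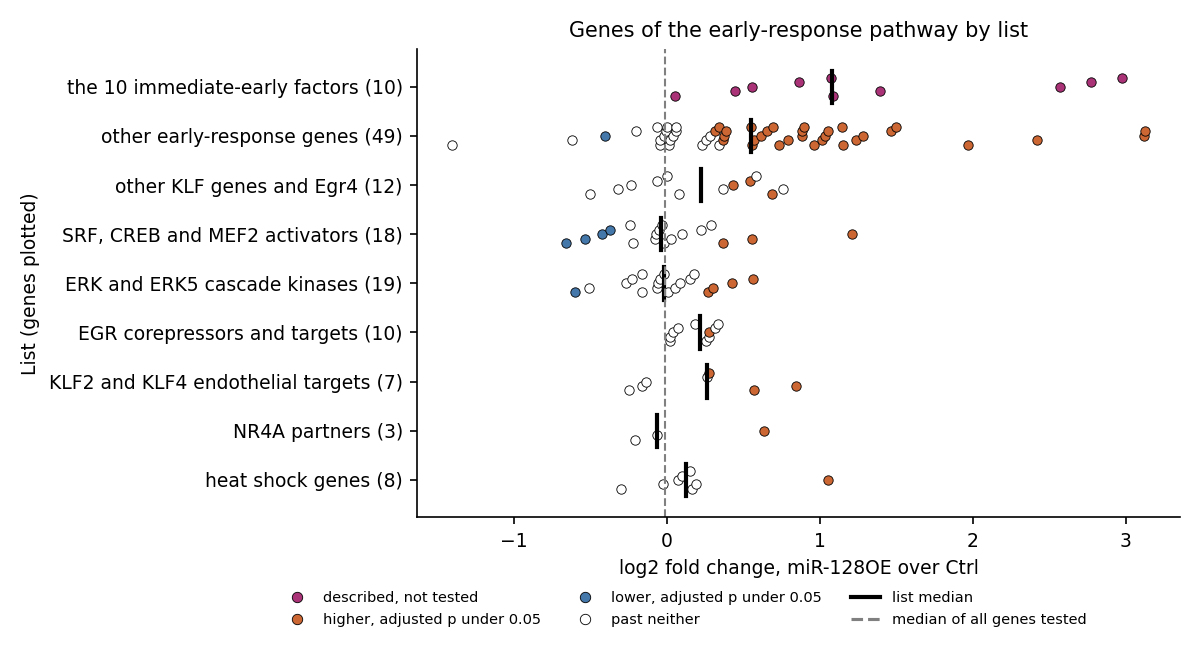
The log2 fold change of miR-128OE over Ctrl hearts (x axis) for each gene of 8 lists and of the 10 immediate-early factors (y axis), with fill colours for the edgeR call, a bar at the list's median and a dashed line at the median of all genes. The early-response list, with a median of 0.55, and the 10 factors, with 1.08, lie to the right of the activators and kinases, whose medians are −0.04 and −0.02.

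The genes for the known inputs of immediate-early promoters moved in both directions, as did all genes tested, of which 16.5% were higher and 15% lower. Among 18 tested genes for SRF, CREB, MEF2 and their cofactors, 3, or 16.7%, were higher and 4, or 22.2%, were lower. The median log2 fold change of these genes was −0.04. Srf, itself an early-response gene, rose from 825 ± 41.3 to 1911 ± 33.4 normalized counts (SD), a log2 fold change of 1.21 (edgeR adjusted p = 2.74e-05). The coactivator gene Crebbp was lower by the same test, with a log2 fold change of −0.66 (edgeR adjusted p = 0.00096). Creb1 fell from 962 ± 0.321 to 666 ± 0.564 normalized counts (SD), a log2 fold change of −0.53 (edgeR adjusted p = 0.00138). Of 19 kinases of the ERK and ERK5 cascades, 4, or 21.1%, were higher and 1, or 5.26%, was lower. Their median log2 fold change was −0.02. Rps6ka2 had a log2 fold change of −0.60 (edgeR adjusted p = 0.00419) and Map2k1 of 0.56 (adjusted p = 0.00637). Without miR-128OE replicate 1, the counts of higher genes dropped to 1 activator and 0 kinases, and without miR-128OE replicate 2 the activators called lower numbered 2, as they did without replicate 1. The kinases called higher numbered 2 and those called lower 0 without miR-128OE replicate 2, and 3 kinases were lower without Ctrl replicate 1. The counts are of transcripts, and phosphorylation of these proteins, which governs the early response, was not measured.

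Partners and known targets of the 3 families were read beside the factors. Nab1 and Nab2, which encode the corepressors of EGR proteins and of which Nab2 is an EGR target, had log2 fold changes of 0.02 and 0.28 (edgeR adjusted p = 0.852 and 0.11). Of the 10 EGR corepressors and targets, 1 was higher and 0 were lower, and the median log2 fold change was 0.22. Pdgfb had a log2 fold change of 0.28 (edgeR adjusted p = 0.0345), Icam1 of 0.33 (adjusted p = 0.0604) and Pdgfa of 0.26 (adjusted p = 0.0875). The list held 0 higher genes with either miR-128OE library left out, with upper-quartile or total-count scaling and by DESeq2, and 2 without Ctrl replicate 2. Among the retinoid X receptors, which pair with some NR4A proteins, Rxrg was higher with a log2 fold change of 0.64 (edgeR adjusted p = 0.0171). The values for Rxrb and Rxra were −0.21 and −0.06 (edgeR adjusted p = 0.117 and 0.692). Rxrg was not called by DESeq2 or with either miR-128OE library left out.

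Of 7 endothelial target genes of KLF2 and KLF4, 3, or 42.9%, were higher and 0 were lower, against 16.5% and 15% of all genes tested. The median log2 fold change of the 7 genes was 0.26. The list did not separate targets that the factors raise from targets that they lower, so these counts are not read as activity of the factors. Thbd, which encodes the anticoagulant receptor thrombomodulin, rose from 583 ± 54.9 to 1054 ± 35.7 normalized counts (SD), a log2 fold change of 0.85 (edgeR adjusted p = 0.000284). S1pr1, a sphingosine 1-phosphate receptor, had a log2 fold change of 0.57 (edgeR adjusted p = 0.00123), and Cdh5, the cadherin of endothelial junctions, of 0.27 (adjusted p = 0.0464). Cdh5 also belongs to the list of 11 endothelial markers, of which 3 were higher and 2 were lower, with a summed normalized count of 28069 and 27659 in Ctrl and 29522 and 28597 in miR-128OE libraries. Which cells the Klf2 and Klf4 reads came from was not measured, and the part of endothelial cell number in their levels was not tested. The endothelial markers with the smallest p-values were Pecam1, at a log2 fold change of 0.42 (edgeR adjusted p = 0.00519), Egfl7, at −0.36 (adjusted p = 0.0117), and Emcn, at −0.29 (adjusted p = 0.0383). Endothelial markers called higher and lower numbered 0 and 0 without miR-128OE replicate 1, 1 and 0 without replicate 2, 3 and 1 without Ctrl replicate 1, and 1 and 5 with total-count scaling.

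Markers of other cell types and of stress were read beside the 10 genes. Of 10 cardiomyocyte markers 5 were higher and 2 were lower, led by Actc1 at a log2 fold change of 1.34 (edgeR adjusted p = 3.35e-05), Actn2 at 0.76 (adjusted p = 0.000586) and Myl3 at 0.64 (adjusted p = 0.00201). Their sum went from 618220 and 669320 normalized counts in Ctrl to 834840 and 813990 in miR-128OE libraries, and all 10 of these defining markers of heart muscle were present. Without miR-128OE replicate 1 the cardiomyocyte markers called higher and lower numbered 3 and 0. Of 7 smooth muscle and pericyte markers 2 were higher and 1 was lower, with sums of 22438 and 20703 against 26648 and 30779. Acta2 was at 0.94 (edgeR adjusted p = 0.00029), Rgs5 at 0.29 (adjusted p = 0.0264) and Myh11 at −0.64 (adjusted p = 0.0359) on the log2 fold change scale. Smooth muscle and pericyte markers called higher and lower numbered 1 and 2 without miR-128OE replicate 2, 2 and 0 without replicate 1, 3 and 1 without Ctrl replicate 1, and 2 and 0 by DESeq2. Of 8 heat shock genes 1, Hspb1, was higher, at 1.06 (edgeR adjusted p = 4.1e-05), while Hspe1 and Hspa8 were at 0.19 and 0.16 (adjusted p = 0.116 and 0.179). The list does not hold Cryab, a small heat shock protein gene picked for its pattern under other observations, at 1.05. The stress-inducible Hspa1a, which was named after its value was seen, had 26.1 ± 6.99 and 29.5 ± 8.18 normalized counts (SD) in Ctrl and miR-128OE hearts. Without Ctrl replicate 1, 2 heat shock genes were higher.

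Fibroblast markers summed to 117140 and 76106 normalized counts in Ctrl and 103180 and 111800 in miR-128OE libraries. Of these 8 genes, 1 was higher, Lum at a log2 fold change of 0.63 (edgeR adjusted p = 0.0286), and Postn and Tcf21 were at 0.31 and 0.30 (adjusted p = 0.17 and 0.175). Without Ctrl replicate 1, 8 of 8 fibroblast markers were called higher, 2 were lower without Ctrl replicate 2, and 0 were called with either miR-128OE library left out or by DESeq2. Macrophage and leukocyte markers summed to 1581 and 1228 against 1276 and 1284 normalized counts. Of these 9 genes 0 were called by the edgeR test or by DESeq2, with 1 at an unadjusted p under 0.05, and 1 was lower by the exact test, with upper-quartile or total-count scaling, with no filter and with either Ctrl library left out. Ptprc, Adgre1 and Csf1r were at −0.52, −0.34 and −0.25 (adjusted p = 0.0632, 0.386 and 0.427). Of 5 atrial markers 0 were called by the edgeR, exact or DESeq2 test and 0 had an unadjusted p under 0.05, and Nppa, Bmp10 and Myl7 were at −1.08, 0.98 and −0.34 (edgeR adjusted p = 0.32, 0.496 and 0.701). Without Ctrl replicate 1 the atrial markers called higher numbered 4, and without Ctrl replicate 2 those called lower numbered 4. Of 7 erythroid markers the 4 globin genes were listed at 0 in all libraries although Alas2 was not. How multi-mapped reads were counted is not given, and these zeros are not read as levels. Of the 3 erythroid genes tested Alas2 was higher at 1.05 (edgeR adjusted p = 0.00106), while Slc4a1 was at 0.21 (adjusted p = 0.521). The part of cell composition in the levels of the 10 genes was not tested.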

How the data were processed

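The deposited table holds raw counts per Entrez Gene identifier and library. Per the study's methods, the authors filtered reads on quality before alignment with TopHat2 to mm10, and counted those on known genes with Bioconductor packages. The submitters' processing notes also name bcl2fastq and edgeR. Gene models, strand and multi-mapped reads are not given in the sources used here.

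Identifiers were matched to symbols for 24374 of 24454 genes. edgeR 4.0.16 in R 4.3.3 was run on all 4 libraries with filterByExpr (minimum count 10, minimum total 15), TMM factors and the two-sided quasi-likelihood test, adjusted over 14266 genes by the Benjamini-Hochberg method. The SE of a log2 fold change was its size over the root of the F statistic. RPKM used GENCODE M21 exon lengths. P-values measure only the spread between these libraries, which differed by more than counting noise (chi-square per degree of freedom 11.7 for Ctrl and 5.55 for miR-128OE). The limit of 3 counts covers counting error only, since PCR reads are not independent molecules.

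The 10 genes and all lists were chosen with earlier results of these data known. Genes named beyond the 10 are the 3 with the smallest p-value in each list, every NR4A partner and sex-linked gene, Nab1, Nab2 and 5 pattern neighbours, of which some are not reported here. Irf1, Myc, Hspa1a and Egr4 were named after their values were seen. Seed and motif matches were found by exact search. Alternatives were other scalings, no filter, a prior count of 2, the exact and DESeq2 1.42.0 tests, and each library left out, with the lone library assumed to vary like the others. Figures were drawn with matplotlib 3.10.9 in Python 3.11.15.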

Additional observations from a re-analysis of the deposited data

How the results depend on the processing

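All values rest on 2 libraries a condition, and Egr2, with 7 to 22 counts a library, was limited by depth. No paired analysis was possible because the labels give the conditions no shared replicate numbers. The median log2 fold change of the 10 genes was 1.08, and 0.98 to 1.09 under other settings of all 4 libraries, lowest with total counts. It was 1.05 to 1.14 with each library left out. The number of the 10 with both miR-128OE libraries above both Ctrl libraries stayed at 9 under the other scalings. With 1 library left out it was 9 to 10, but fewer libraries were then compared, which is easier to meet. Of 100 single-gene values under alternatives, 87 moved by less than the spread between replicates and 13 by more. With total counts Nr4a1 was 2.67, Klf4 0.77, Ier2 0.99 and Egr3 0.35. Egr2 was 0.95 with a prior count of 2. Over all genes, 2347 were higher and 2143 lower, with 1410 lower by DESeq2, and leaving out 1 library gave 897 to 2654 higher and 667 to 2384 lower, lowest without miR-128OE replicate 1. The upper-quartile and total-count scalings gave 1980 and 1611 higher. Early-response genes called lower numbered 0 by DESeq2, 2 by the exact test and 0 to 2 with 1 library left out, against 1. Other KLF genes ranged with 1 library left out from 0 to 4 higher and 0 to 1 lower. Activators ranged likewise from 1 to 4 higher and 2 to 5 lower. Kinases called higher numbered 2 with total counts, 2 by DESeq2 and 0 to 5 with 1 library left out. Kinases called lower numbered 4 with upper-quartile factors, 4 with total counts, 2 by the exact test and 0 to 3 with 1 library left out. Of 57 named genes outside the 10, 39 were called, and 24 of these were called under all 10 alternatives with a test. Most named genes were picked by their p-values or their pattern in these libraries. These counts were thus partly set by the choice and do not measure how firm the calls are in general. The causes were not tested.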

Other observations

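Genes outside all lists were ordered by the Euclidean distance of their pattern over the 4 libraries, as log2 CPM centred on its mean, from the median pattern of the 10 genes. Among 12760 candidates the nearest were Cryab, a small heat shock protein gene, at 0.0289, Egln3, a prolyl hydroxylase of the hypoxia response, at 0.0406, Nqo1, a quinone reductase, at 0.0432, Map1lc3a, of the autophagosome membrane, at 0.0604, and Cox6b1, a subunit of cytochrome c oxidase, at 0.0679. Their log2 fold changes were 1.05 for Cryab, 1.06 for Egln3, 1.06 for Nqo1, 1.01 for Map1lc3a and 1.02 for Cox6b1. The median pattern was taken in each library, at −0.52 and −0.51 in Ctrl and 0.55 and 0.50 in miR-128OE libraries. Fold changes near the size of that pattern follow from the choice. Cryab rose from 5197 to 10740 normalized counts and Nqo1 from 91.9 to 192. With 4 libraries in 2 conditions, likeness of this kind says little beyond the size of the difference.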
